A study of Mus musculus with 27 samples.

Results

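The comparison described here sets mesenchyme of hindlimb-type limb buds grown from mouse ES cells (ES–HLB) against the early hindlimb bud of the embryo (early HLB). It rests on 6 of the 27 RNA-seq libraries of the series, 3 in each group, which were chosen by their labels and not by any measured value. ES–HLB cells came from the line EB5 with Hand2::GFP on 1 of its alleles (Hand2::GFP +/-), cultured as floating aggregates to day 9. The ES cells had been kept in LIF and 2i. The aggregates received BMP4 with Matrigel, then an antagonist of retinoic acid (RA), then the BMP inhibitor LDN193189 and Wnt3, and the medium also contained hydrocortisone. On day 9 the aggregates were dissociated with trypsin and the cells that carried the fluorescent reporter of Hand2, a transcription factor gene of limb bud mesenchyme, were collected by FACS. Early HLBs were cut whole from embryos of strain Slc:ICR, labelled E10.0, with no dissociation or sorting named. The figure legend of the study gives a slightly later stage for them, and an earlier one for early forelimb buds, which the labels put at the same day. ES–HLB cells are thus from 1 line and from aggregates pooled for each sort, and early HLBs are from several embryos with their ectoderm, vessels and blood. Sorting, culture, genetic background, stage and sequencing depth differ between the groups at once, and their parts in any difference cannot be told apart. No label says that the libraries of a group came from separate cultures or litters, so p-values measure the spread between these samples, which may be technical. In RNA of whole cell populations, fewer cells of a type and less RNA per cell cannot be told apart either.

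A limb bud is a pocket of mesenchyme from the lateral plate, covered by ectoderm whose distal rim, the apical ectodermal ridge (AER), keeps the mesenchyme growing through FGFs. Mesenchyme returns Fgf10 and Bmp antagonists to the ridge, Shh from the posterior margin drives Hoxd genes and Grem1, and Wnt7a of the dorsal ectoderm induces Lmx1b beneath it. Hindlimb type is set by Pitx1, Tbx4 and Isl1. Later the same mesenchyme gives cartilage, tendon and connective tissue, whose common product is collagen-rich matrix.

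The deposited values are CPM, reads of a gene per 1000000 reads of the library. Depth, estimated from the spacing of low values, was 6569898 to 7879924 reads in ES–HLB and 19641999 to 21001247 in early HLBs. A level of 3 reads, set here as the detection floor, was 0.364 to 0.431 CPM in ES–HLB and 0.152 to 0.169 CPM in early HLBs, which covers counting error only. CPM below stands for values scaled between libraries, levels are given as mean ± SD (n = 3) unless single libraries are listed, and log2 fold changes are ES–HLB minus early HLB of log2(CPM + 0.5), a scale that makes changes of low genes look smaller. CPM is not corrected for transcript length, so levels are compared between groups and not between genes. Of 13238 genes tested, 3827 (28.9%) were higher and 4105 (31.0%) lower in ES–HLB at an adjusted p below 0.001 (limma, Benjamini-Hochberg), the threshold of every call here. With a change of at least 2-fold asked as well, 15.5% were higher and 9.51% lower. These shares are the background against which counts of a gene group are to be read. In 10622 of the 13238 genes the libraries of the groups did not overlap. The split depends on scaling. With CPM as deposited the median log2 fold change over all genes was 0.18 in place of −0.01, and 4820 genes were higher and 2996 lower. Within a group, the Pearson correlation across genes of log2 CPM lay between 0.993 and 0.996, which describes the libraries, as genes are not independent replicates.

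**Figure D1:**
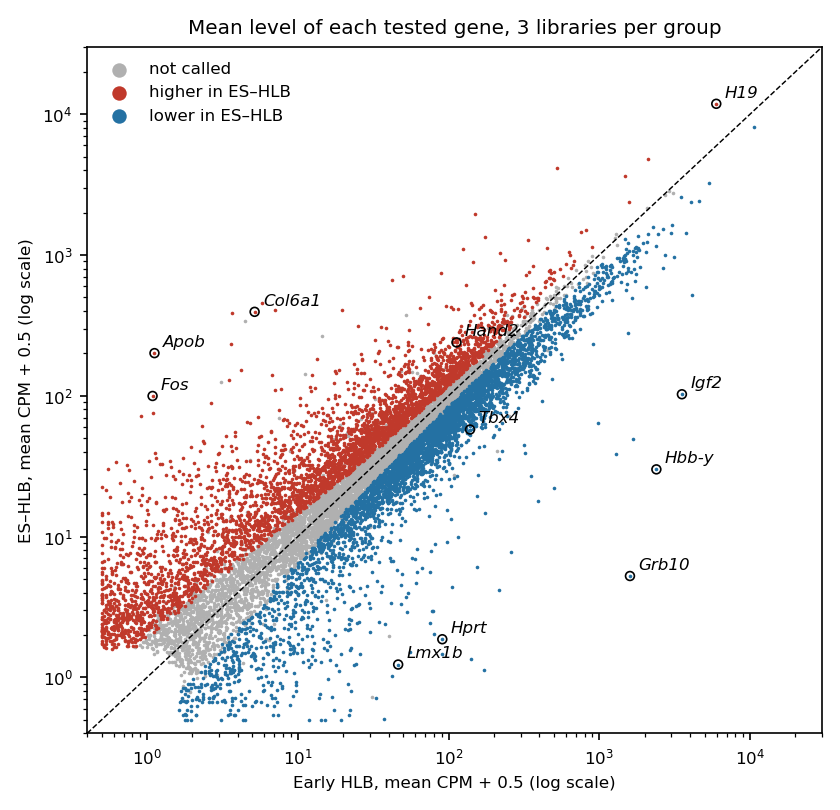
Mean level of each tested gene in early HLB (x axis, CPM + 0.5, log scale) against ES–HLB (y axis, same scale), 3 libraries in each group. Grey points were not called, red points are higher and blue points lower in ES–HLB at an adjusted p below 0.001, and Col6a1 lies far above the diagonal while Grb10 lies far below it.

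Col6a1 and Grb10 separated the groups widely, in opposite directions. Col6a1 (chromosome 10, 76708792 to 76726044 of GRCm38) encodes a chain of type VI collagen, the beaded-filament collagen around connective tissue cells. Its level was 408, 369 and 405 CPM in the ES–HLB libraries and 5.21, 4.51 and 4.28 CPM in early HLBs, 84.4-fold higher (log2 fold change 6.26, standard error 0.08, adjusted p = 6.23e-17, limma). Grb10 (chromosome 11, 11930499 to 12037428), an imprinted gene for an adaptor that restrains insulin and IGF receptors, had 4.52, 4.74 and 4.98 CPM in ES–HLB and 1429, 1705 and 1654 CPM in early HLBs. It was 336-fold lower, a log2 difference of −8.25 with a standard error of 0.07 (adjusted p = 5.82e-19, limma). For both genes the libraries of the groups lay far apart, with a spread within groups that was small beside the gap. The forelimb-type cells of the same line (ES–FLB) had received RA in culture in place of its antagonist. ES–FLB had 190.1 ± 10.03 CPM of Col6a1 and 9.90 ± 2.55 CPM of Grb10, against 8.77 ± 1.33 and 1656 ± 45.2 CPM in early forelimb buds (early FLB). HLBs of E10.5 had 6.21 ± 1.051 CPM of Col6a1 and 1595 ± 33.1 CPM of Grb10.

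The sorted cells expressed the defining genes of limb mesenchyme. Hand2 was 239 ± 12.6 CPM in ES–HLB and 112 ± 4.03 CPM in early HLBs, but it was the gene sorted for, so its difference is not an independent result. Prrx1, a homeobox gene of limb mesenchyme, was 1.48-fold higher (652 ± 12.9 against 439.8 ± 41.6 CPM, adjusted p = 5.02e-07, limma). Twist1 did not pass the test, with 420.5 ± 16.9 and 305 ± 42.4 CPM (adjusted p = 0.00156, limma). Pdgfra, the receptor by which such mesenchyme is often sorted, had 562 ± 17.99 and 204 ± 4.34 CPM (log2 fold change 1.46, adjusted p = 1.56e-12, limma). Prrx2, a relative of Prrx1, was lower (42.6 ± 3.57 against 93.7 ± 10.3 CPM). Twist1 passed without early HLB replicate 1 or 3 (0.35 to 0.54). It also passed with CPM as deposited (0.67), and with the replicate block or no filter (0.47 in each). Prrx1 (0.57) lost its call in the fit on all 27 libraries.

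The genes of hindlimb type were present below the level of the bud. Tbx4 had 62.4, 59.2 and 49.6 CPM in ES–HLB and 139, 137 and 139 CPM in early HLBs. Pitx1, which acts above it, had 74.8, 66.1 and 72.0 CPM and 251, 227 and 252 CPM. No library of ES–HLB reached an early HLB library for either gene, and both were called lower (−1.28 and −1.77 on the log2 scale, adjusted p = 9.28e-10 and 3.59e-12, limma). Isl1, an early hindlimb gene, was not called (31.1 against 21.8 CPM). Tbx5, which sets the forelimb, was low in both groups at 3.20 ± 0.917 and 0.715 ± 0.182 CPM, and was called higher in ES–HLB (log2 fold change 1.58, standard error 0.23, adjusted p = 1.31e-05, limma). In all, 2 of the 10 selector genes tested were higher and 4 lower. Isl1 passed without early HLB replicate 2 (0.69). Tbx4 (−1.28) lost its call in the fit on all 27 libraries.

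Hox genes of the posterior clusters were mostly lower, the Hoxd genes without exception. All 6 genes from Hoxd8 to Hoxd13 were called lower, with log2 fold changes from −3.48 to −1.34 and a median of −2.995, against a median of −0.01 over all genes tested. Hoxd9, Hoxd10 and Hoxd11, which pattern the upper and middle limb segments, had 5.504, 5.09 and 3.98 CPM in ES–HLB and 65.9, 61.2 and 35.9 CPM in early HLBs. Hoxd13, the digit gene, had 12.4 ± 2.12 and 50.9 ± 5.72 CPM. The Hoxa genes differed less. Hoxa11 was called lower (53.4 against 99.8 CPM), whereas Hoxa9, Hoxa10 and Hoxa13 did not pass (−0.75, −0.52 and −0.06 on the log2 scale). Of the Hoxc genes 4 of 7 tested were lower. Hoxc10, a gene of the hindlimb level, had 28.7, 23.9 and 24.5 CPM in ES–HLB and 103, 104 and 115 CPM in early HLBs (log2 fold change −2.04, adjusted p = 1.18e-11, limma). Hoxc9 was also lower (6.50 against 22.4 CPM), and Hoxc4, Hoxc5 and Hoxc11 were not called. In the Hoxb cluster Hoxb3 and Hoxb4 were higher (0.73 and 0.79) and Hoxb6, Hoxb7, Hoxb8 and Hoxb9 were lower (−2.14, −3.20, −2.89 and −3.07). Hoxb5, which lies between these blocks, and Hoxb2, on the far side of Hoxb3, were not called. Hoxa10 passed without early HLB replicate 1 or 2 (−0.65 to −0.40). Hoxa9 passed without early HLB replicate 1 or 2 (−0.89 to −0.60). Hoxb2 passed without early HLB replicate 1, 2 or 3 (0.45 to 0.76). It also passed with CPM as deposited (0.84), a pseudocount of 2 (0.60) and the replicate block (0.65). Hoxb4 was no longer called without ES–HLB replicate 2 (log2 fold change 0.74). Hoxb3 (0.73) lost its call without trend and robust estimation, and Hoxa11 (−0.88), Hoxb3 (0.73) and Hoxb4 (0.79) lost their calls in the fit on all 27 libraries, and Hoxb9 (−3.14) lost its call with limma-voom.

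Among 27 transcription factors of limb bud mesenchyme, 8 were higher and 9 lower. The lower ones were led by LIM-homeobox genes that transmit ectodermal signals. Lmx1b, the dorsal determinant, had 1.16, 0.431 and 0.607 CPM in ES–HLB and 50.3, 40.0 and 47.0 CPM in early HLBs (log2 fold change −5.27, adjusted p = 1.85e-11, limma). Lhx9 had 5.57 ± 1.299 against 153 ± 40.0 CPM and Lhx2 14.2 ± 0.827 against 175 ± 19.4 CPM, so that Lhx9 was 27.5-fold and Lhx2 12.3-fold lower. Sall3, Sall4, Msx1, Msx2 and Gli3 were lower too, with log2 fold changes of −2.72, −1.92, −1.46, −1.32 and −0.89. On the higher side stood Osr1 (54.6 against 3.35 CPM) and Osr2 (28.9 against 1.13 CPM), zinc-finger genes of connective tissue and joints. Tbx2, a T-box gene of the limb margins, rose with them, at 299, 301 and 309 CPM in ES–HLB and 37.0, 36.9 and 40.5 CPM in early HLBs (log2 fold change 2.97, adjusted p = 1.06e-14, limma). Lhx9 (−4.76) and Msx2 (−1.34) lost their calls with limma-voom.

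Genes of the distal bud were mostly lower, and those of the proximal bud went both ways. Of the 18 distal genes 13 were lower and 2 (Jag1 and Wnt5a) higher, with a median of −1.21. Of the 13 proximal genes 5 were lower and 2 higher (median 0.09), but with CPM as deposited 5 were higher and 5 lower (median 0.28). Meis1, a proximal homeobox gene, was higher (166 against 116 CPM), Meis2 did not pass (315 against 225 CPM), and their partner Pbx2 was lower (−0.89). Emx2 and Rarb, both of the proximal bud, were lower, with log2 fold changes of −4.18 and −3.24. The posterior list was mixed. The hedgehog target Ptch1 was higher (68.7 against 45.7 CPM), as was Hhip (12.5 against 1.89 CPM), while Grem1 was lower (6.83 against 24.6 CPM) and Shh itself, low in both groups, was not called (1.33 against 2.41 CPM). Gli1 had 59.8, 71.4 and 71.8 CPM in ES–HLB and 40.3, 17.3 and 19.4 CPM in early HLBs, with early replicate 1 apart from the rest. It did not pass (adjusted p = 0.0192, limma). Gli1 passed when that library was left out (1.85 on the log2 scale) and in the fit on all 27 libraries (1.48). Jag1 was no longer called without ES–HLB replicate 2 or 3 (log2 fold change 0.72 to 0.80). Meis1 was no longer called without ES–HLB replicate 1, 2 or 3 (log2 fold change 0.51 to 0.54). Meis2 passed without early HLB replicate 1 or 2 (0.37 to 0.59). It also passed with CPM as deposited (0.69), and in the fit on all 27 libraries, with the replicate block or with no filter (0.50 in each). Ptch1 was no longer called without ES–HLB replicate 1 or 3 (log2 fold change 0.53 to 0.58). Jag1 (0.80), Meis1 (0.52), Ptch1 (0.59) and Wnt5a (0.40) lost their calls without trend and robust estimation, and Grem1 (−1.82) lost its call with limma-voom.

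**Figure D2:**
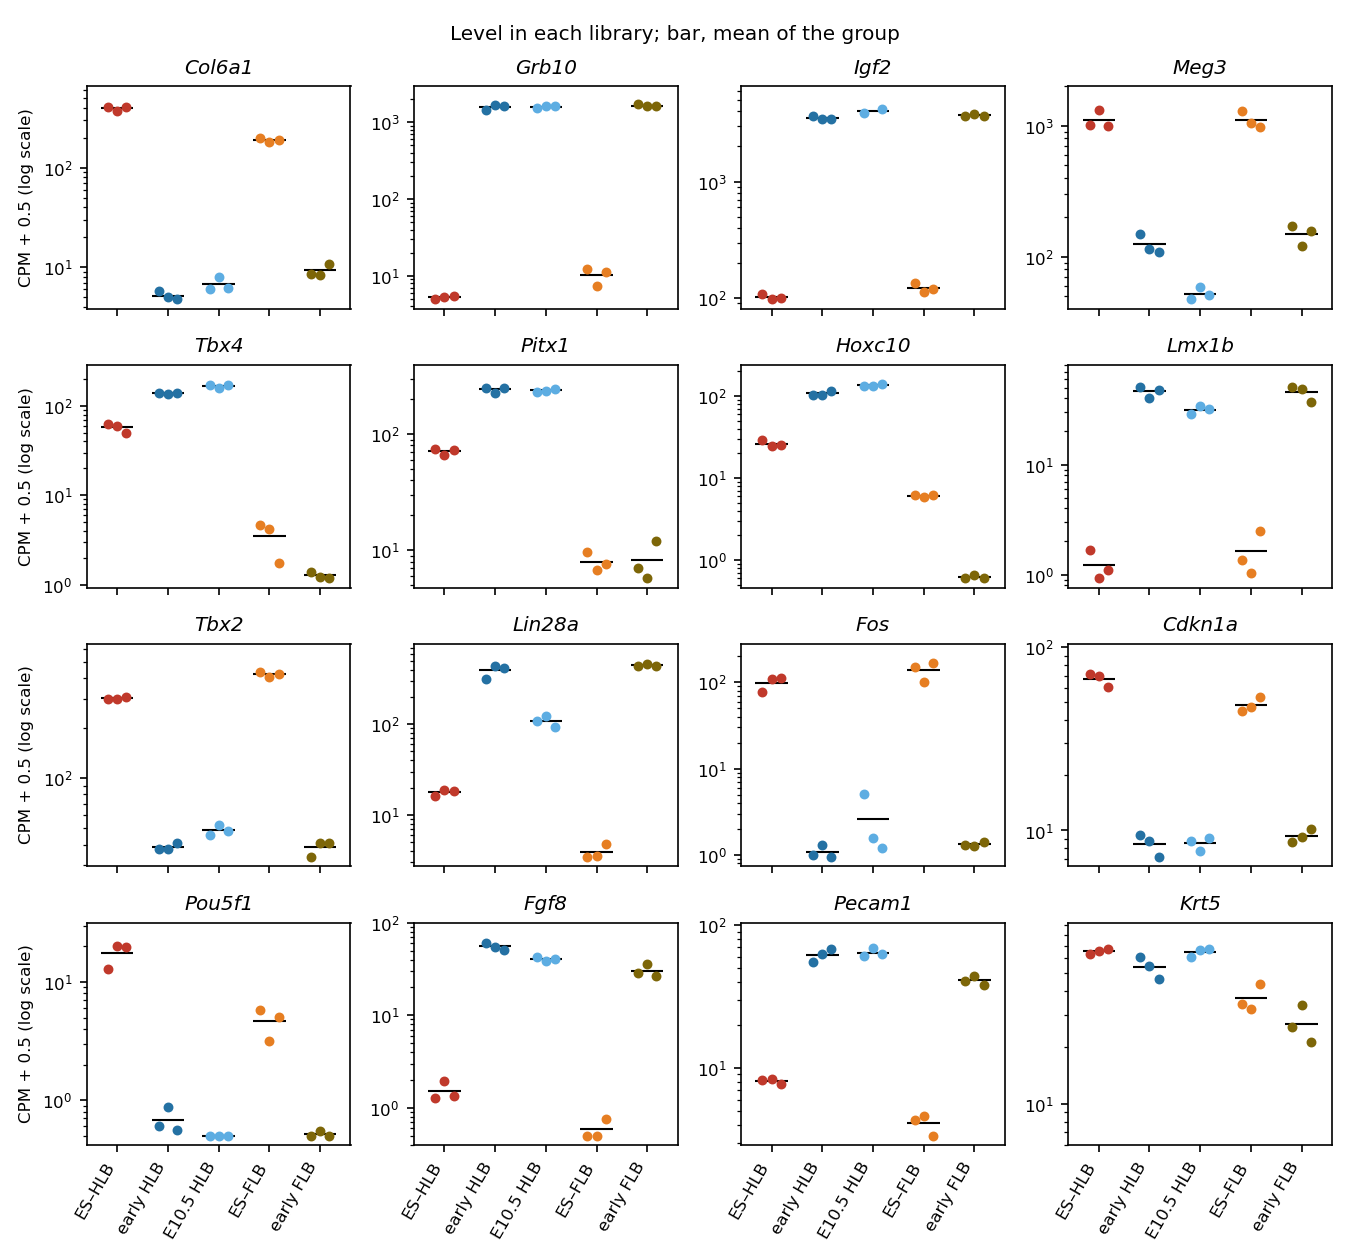
Level of 16 genes in each library (y axis, CPM + 0.5, log scale) for ES–HLB, early HLB, E10.5 HLB, ES–FLB and early FLB, 3 libraries in each group and a bar at each mean, with values set to missing left out. In each panel the ES–HLB points lie wholly above or wholly below the early HLB points, for Krt5 by under 2-fold, and ES–FLB lies far below ES–HLB for Tbx4 and Pitx1.

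Genes of cell types that belong to the bud but not to a mesenchymal sort were lower. Of 24 endothelial genes 23 were lower, and their summed level was 123 to 131 CPM in the ES–HLB libraries against 744 to 904 CPM in early HLBs. The defining genes were not at 0. Pecam1 had 7.60 against 61.4 CPM, the cadherin Cdh5 9.47 against 116 CPM and the VEGF receptor Kdr 12.9 against 104 CPM. Red cell genes were lower in 12 of 13, with a sum of 102 to 187 against 3536 to 7231 CPM. The embryonic globin Hbb-y had 39.5, 26.4 and 22.6 CPM in ES–HLB and 2759, 2976 and 1434 CPM in early HLBs. Globin levels varied within groups, and under limma-voom on estimated reads none of these genes was called. Of 6 macrophage genes tested 3 were lower (sum 11.6 to 12.5 against 26.8 to 31.4 CPM). Of 4 genes of migrating muscle precursors 3 were, Pax3, Met and Des, with a sum of 15.8 to 22.4 against 55.5 to 61.4 CPM, and 1 was lower under limma-voom. Hbb-y was no longer called without ES–HLB replicate 2 or 3 or early HLB replicate 1 or 2 (log2 fold change −6.23 to −6.09). Des (−1.50), Hbb-y (−6.31) and Pax3 (−2.17) lost their calls with limma-voom.

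Ectodermal genes of the ridge and of the dorsal ectoderm were lower, while several keratins were not. Fgf8, the chief signal of the AER, had 0.775, 1.44 and 0.849 CPM in ES–HLB and 60.2, 53.9 and 50.5 CPM in early HLBs. Wnt7a had 0.387, 0 and 0.243 CPM and 25.6, 34.5 and 37.8 CPM, so that 2 ES–HLB libraries were below the floor (adjusted p = 2.13e-11, limma). Sp6, Sp8, Wnt6 and Trp63, genes of the limb ectoderm, were lower, with log2 fold changes of −4.19, −3.83, −3.87 and −3.75. By contrast Krt14 was higher at 16.9, 19.5 and 18.9 CPM in ES–HLB and 3.89, 4.73 and 2.99 CPM in early HLBs, as were Krt15 (10.7 against 3.38 CPM) and Krt19 (30.7 against 14.7 CPM). Krt18 was lower (24.9 against 41.9 CPM), and Krt5 and Krt8 did not differ at the threshold (65.1 ± 2.32 against 53.7 ± 7.41 and 38.8 ± 1.74 against 46.2 ± 13.8 CPM). The epithelial cadherin Cdh1 was lower by a small step, 44.9 ± 3.36 against 60.3 ± 3.48 CPM, while Epcam, an adhesion molecule of epithelia, had 15.2 against 58.4 CPM. Of the 31 ectodermal genes 21 were lower and 4 higher, and the sum was 420.0 to 444 CPM in ES–HLB against 866 to 988 CPM. Epithelial transcripts were thus present in the sorted cells, and their part in other differences was not tested. Krt15 was no longer called without ES–HLB replicate 2 (log2 fold change 1.55). Krt5 passed without early HLB replicate 1 (0.38). Cdh1 (−0.23) lost its call with CPM as deposited, and Cdh1 (−0.42), Krt15 (1.59) and Krt18 (−0.73) lost their calls without trend and robust estimation, and Cdh1 (−0.42) lost its call in the fit on all 27 libraries.

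Most genes of pluripotent cells and of endoderm, which a limb bud lacks, were higher in ES–HLB, while lists of other lineages went both ways. Of 15 pluripotency genes 14 were higher and none lower, with a sum of 172 to 217 CPM against 6.37 to 10.8 CPM. Pou5f1, the core pluripotency factor, had 12.4, 19.8 and 19.4 CPM in ES–HLB and 0.101, 0.376 and 0.0564 CPM in early HLBs. Nanog was at 9.21 CPM, below the floor in all early HLBs, and so at least 54.5-fold higher. Zfp42 and Dppa5a, genes of naive ES cells, had 19.8 and 18.5 CPM against 0.246 and 0.0706 CPM. Sox2, shared by pluripotent and neural cells, had 20.1, 25.01 and 25.6 CPM and 0.152, 0.215 and 0.113 CPM. Endoderm genes were higher in 10 of 12 (sum 256 to 354 against 13.6 to 15.5 CPM). Apob, the apolipoprotein of yolk sac and liver, had 167, 241 and 193 CPM in ES–HLB and 0.859, 0.322 and 0.676 CPM in early HLBs. Ttr and Apoa1, other secreted carriers of that endoderm, had 20.98 and 24.2 CPM against 0.0348 and 0.32 CPM. Genes of neural crest, glia and neurons rose in part, Stmn2 to 29.5 from 1.69 CPM and Nefm to 22.1 from 2.18 CPM. Of 11 tested, 6 were higher, among them Sox2, also counted with pluripotency, and 1 (Erbb3) was lower. Another 8 were too low to be tested. Genes of splanchnic and body wall mesoderm were higher in 7 of 13, Gata4 (11.2 against 0.358 CPM) and Tcf21 (17.5 against 2.63 CPM) among them, and lower in 3. Somite genes were higher in 3 of 5 and lower in 1 (0 with CPM as deposited), and branchial arch genes were higher in 2 of 9, of which 4 were lower. Barx1, of arch mesenchyme, had 2.70 against 0.517 CPM, Dlx5, also a ridge gene, 3.47 against 8.20 CPM, and Dlx6 was not called. Of the kidney and intermediate mesoderm genes, Six2 stood out with 34.0 ± 3.89 against 0.915 ± 0.191 CPM. Of 6 heart genes tested Tnnt2, Tbx20 and Ryr2 were higher, with sums of 29.9 to 35.3 and 11.6 to 19.5 CPM, and Nkx2-5 at 0.682 and 0 CPM, too low to be tested. Tbx20 was no longer called without ES–HLB replicate 1, 2 or 3 or early HLB replicate 3 (log2 fold change 1.92 to 2.16). Tcf21 was no longer called without ES–HLB replicate 1, 2 or 3 or early HLB replicate 3 (log2 fold change 2.64 to 2.88). Tnnt2 was no longer called without ES–HLB replicate 1 or early HLB replicate 3 (log2 fold change 1.06 to 1.13). Erbb3 (−0.99) and Tbx20 (2.02) lost their calls without trend and robust estimation, and Tbx20 (2.02) lost its call in the fit on all 27 libraries, and Tcf21 (2.66) lost its call with a filter of 5 CPM, and Tcf21 (2.89) lost its call with a pseudocount of 0.1.

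Most collagen genes were higher in ES–HLB. Of 35 collagen chain genes tested 27 were higher and 2 lower (median 2.06), and together they took 10668 to 11402 CPM in ES–HLB against 2608 to 2884 CPM in early HLBs. The other type VI chains moved with Col6a1. Col6a2, its neighbour on chromosome 10, had 409, 393 and 418 CPM in ES–HLB and 7.13, 6.56 and 6.09 CPM in early HLBs. Col6a3, on chromosome 1, had 377, 391 and 389 CPM and 3.18, 4.14 and 2.20 CPM (122-fold). Col12a1, which decorates collagen fibrils, was 41.2-fold higher (152 ± 8.14 against 3.69 ± 1.46 CPM). Fibrillar chains were higher as well. Col3a1 had 4133 ± 136 against 526 ± 41.0 CPM, Col1a2 1954 ± 90.0 against 149 ± 17.0 CPM and Col1a1 745 ± 84.0 against 89.0 ± 33.2 CPM, with Col5a1 and Col5a2 4.14-fold and 3.27-fold higher. The basement membrane chains Col4a1 and Col4a2 did not pass, at 536 against 532 and 290.2 against 289 CPM. Both passed with CPM as deposited (log2 fold changes 0.21 and 0.20). Col15a1 and Col18a1, collagens of vessel and epithelial basement membranes, were the ones called lower (4.93 against 48.7 and 122 against 372 CPM). Col1a1 was no longer called without ES–HLB replicate 1, 2 or 3 or early HLB replicate 1 or 3 (log2 fold change 2.84 to 3.20).

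Enzymes that handle collagen rose in part. Of 21 such genes 13 were higher and 2 lower. Crosslinking oxidases were higher, Lox at 11.1 against 1.32 CPM and Loxl1 at 22.8 against 2.91 CPM, whereas the collagen chaperone Serpinh1 did not pass (748 ± 34.6 against 911 ± 98.1 CPM). Of 32 other matrix genes 20 were higher and 3 lower. Eln, the gene of elastin, had 24.9 against 1.45 CPM, Vcan (versican) 1336 against 175 CPM, and Fbn1 (fibrillin) 202 against 33.5 CPM. Has2, which makes hyaluronan, was 5.57-fold higher. Hapln1, which ties hyaluronan to proteoglycans, was 9.60-fold lower (8.39 ± 1.20 against 80.5 ± 20.1 CPM). Serpinh1 passed without early HLB replicate 1 (−0.37). Hapln1 (−3.24) lost its call with limma-voom.

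Tendon and connective tissue genes were higher in 18 of 24 tested and lower in none (median 3.36), although several are collagens counted above. Dcn (decorin) had 91.5, 80.5 and 91.5 CPM in ES–HLB and 1.11, 4.30 and 1.01 CPM in early HLBs, and Tnc (tenascin C) had 175, 181 and 187 CPM and 6.77, 18.4 and 13.5 CPM. Lum (lumican) showed the widest gap of the list without a call, and 1 early library stood apart from the other two. It had 335, 323 and 365 CPM in ES–HLB and 1.26, 9.51 and 1.18 CPM in early HLBs (adjusted p = 0.00159, limma). Postn (periostin) had 359, 366 and 391 CPM and 20.2, 100.2 and 35.8 CPM and was not called, with the same early library highest. Scx, the tendon factor, had 13.2, 12.6 and 13.1 CPM and 5.86, 1.24 and 1.97 CPM and was not called either. For Lum, Postn and Scx the libraries of the groups did not overlap, as in 10622 of the 13238 genes tested. Lum passed without early HLB replicate 2 (7.63 on the log2 scale) and Scx without early HLB replicate 1 (2.70). In the fit on all 27 libraries Lum, Postn and Scx all passed (6.78, 3.14 and 2.16). Lum also passed with limma-voom, with a pseudocount of 2 and without trend and robust estimation, and Scx without the filter. Cartilage and bone genes were higher in 13 of 18 and lower in 2. Runx2, the osteoblast factor, had 18.9, 23.9 and 22.2 CPM in ES–HLB and 0.556, 0.376 and 0.338 CPM in early HLBs, and Runx1 had 26.6 against 0.99 CPM. Sox9, the cartilage factor, was not called (67.1 ± 6.45 against 33.0 ± 10.51 CPM), and Col2a1, its target, was 1.346-fold higher. Dcn was no longer called without ES–HLB replicate 1, 2 or 3 or early HLB replicate 1 or 3 (log2 fold change 4.99 to 5.34). Sox9 passed without early HLB replicate 1 or 2 (0.84 to 1.29). Tnc was no longer called without ES–HLB replicate 1, 2 or 3 or early HLB replicate 2 or 3 (log2 fold change 3.84 to 4.17). Col2a1 (0.43) lost its call without trend and robust estimation.

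**Figure D3:**
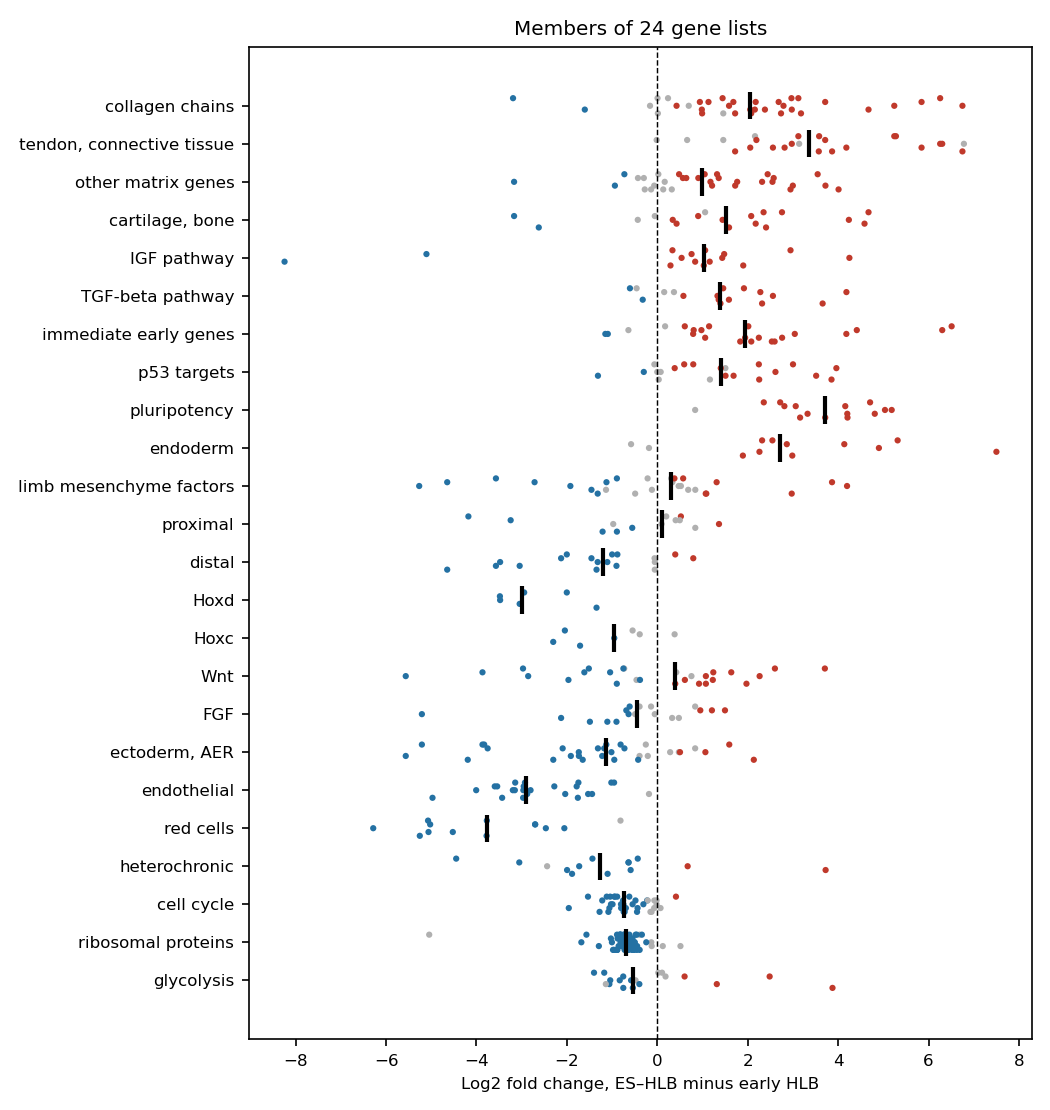
Log2 fold change (x axis, ES–HLB minus early HLB) of every tested member of 24 gene lists (rows), red or blue where called higher or lower at an adjusted p below 0.001 and grey where not, with a black bar at the median of the list and a dashed line at the median of all genes. Collagen, tendon, pluripotency, endoderm and immediate early genes lie mainly to the right, and endothelial, red cell, Hoxd, distal, heterochronic, cell cycle and ribosomal protein genes mainly to the left.

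Imprinted genes held some of the widest differences, and neighbours on chromosomes 7 and 12 went opposite ways. Imprinted genes are read from the copy of 1 parent, and many of them act on growth. On chromosome 7, Igf2 (142650768 to 142666816 of GRCm38), the paternally expressed growth factor, had 109, 97.6 and 99.3 CPM in ES–HLB and 3679, 3434 and 3475 CPM in early HLBs (34.6-fold lower, adjusted p = 3.15e-18, limma). H19 (142575530 to 142578146), read from the maternal copy beside it, was higher at 11849 ± 623 against 5966 ± 48.8 CPM (log2 fold change 0.99, adjusted p = 1.98e-11, limma). On chromosome 12, Dlk1 (109452485 to 109463336), the paternally expressed inhibitor of differentiation, had 24.3, 18.3 and 22.8 CPM in ES–HLB and 367, 604 and 521 CPM in early HLBs, and Rtl1 and Dio3 were also lower (0.0479 against 3.02 and 0.963 against 5.85 CPM). Their maternally expressed neighbours Meg3 (109540996 to 109571729), Rian and Mirg, long noncoding RNAs of that cluster, were higher. Meg3 had 1014, 1309 and 1002 CPM in ES–HLB and 149, 114 and 108 CPM in early HLBs, Rian 1269 ± 20.51 against 338 ± 52.3 CPM and Mirg 51.0 ± 3.15 against 9.88 ± 1.07 CPM. Dio3 (−2.04) lost its call without trend and robust estimation, and Dio3 (−2.44) lost its call with limma-voom.

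Elsewhere the parental origin did not divide the directions. Grb10 and Asb4, read from the maternal copy, were lower (26.5 against 351 CPM for Asb4), and so were Mest (547, 500.1 and 513 CPM in ES–HLB and 4018, 4164 and 4215 CPM in early HLBs) and Peg13 (2.11 against 21.2 CPM) of the paternal copy. Peg10, Peg3, Zdbf2, Impact and Plagl1 of the paternal copy were 2.29-fold, 2.48-fold, 3.13-fold, 2.89-fold and 1.98-fold higher, and maternal Igf2r and Zim1 2.21-fold and 8.77-fold higher. In all 7 maternal genes were higher and 5 lower of 17, and 11 paternal genes higher and 8 lower of 27. With CPM as deposited 8 were higher and 3 lower of the maternal genes. Kcnq1ot1 had 54.2, 107 and 46.5 CPM in ES–HLB and 10.52, 4.89 and 5.69 CPM in early HLBs and was not called. The alleles were not told apart in these data. Igf2as, which overlaps Igf2 on the other strand, was lower too (2.45 against 77.2 CPM), and the strand setting of the counting is not given in the sources used here. Igf2r was no longer called without ES–HLB replicate 1 or early HLB replicate 3 (log2 fold change 1.15 to 1.20). Kcnq1ot1 passed without ES–HLB replicate 2 (2.82).

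**Figure D4:**
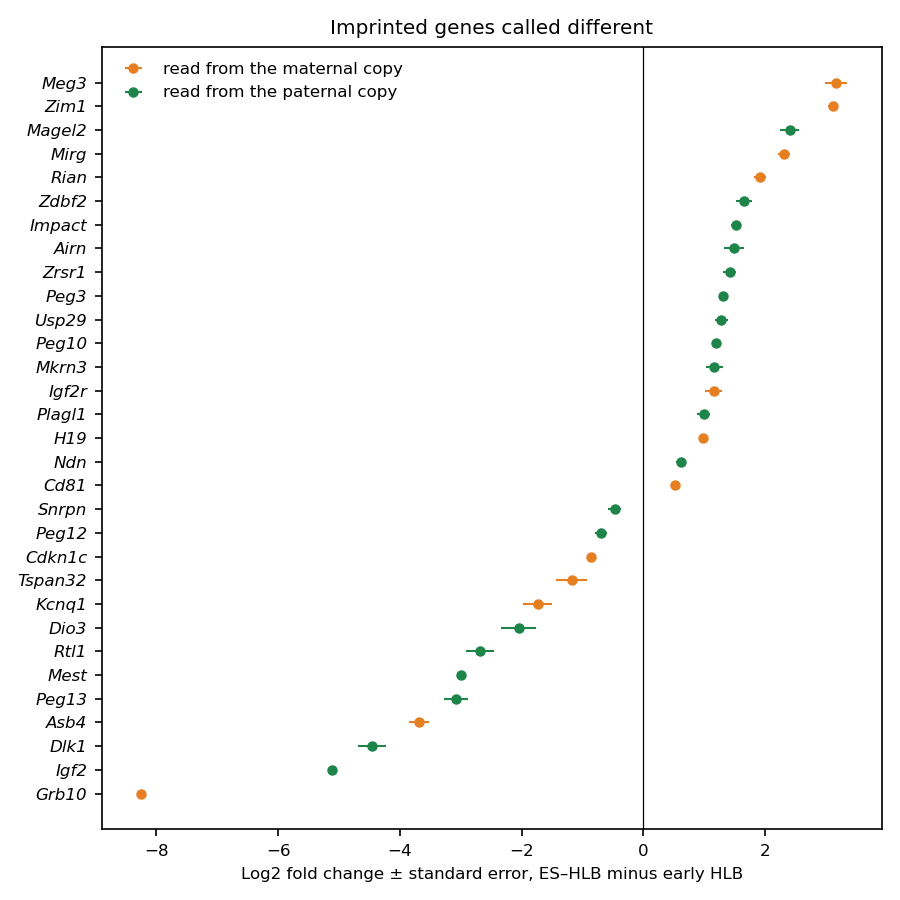
Log2 fold change with its standard error (x axis, ES–HLB minus early HLB) of imprinted genes (rows) that passed an adjusted p of 0.001, orange for genes read from the maternal and green for genes read from the paternal copy. Grb10, Igf2, Dlk1, Asb4, Peg13 and Mest lie lowest, and Meg3 and Zim1 highest.

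The ligand and the brake of IGF signalling were low together while the rest of the pathway was higher. Of 15 IGF pathway genes 13 were higher and 2 lower, and the lower ones were Igf2 and Grb10. Igf1, the other ligand, had 232, 252 and 264 CPM in ES–HLB and 31.6, 34.1 and 29.98 CPM in early HLBs. The receptor Igf1r and the clearance receptor Igf2r were higher by 0.54 and 1.16 on the log2 scale, and Igfbp3, a binding protein, by 1.90.

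Heterochronic genes, listed for their ties to developmental age, were lower in 11 of 14. Lin28a, which blocks the maturation of let-7 microRNAs, had 15.8, 18.3 and 17.96 CPM in ES–HLB and 318, 437 and 421 CPM in early HLBs, 22.6-fold lower. Lin28b had 38.4 ± 5.55 against 321 ± 28.9 CPM. HLBs of E10.5 had 108 ± 15.9 CPM of Lin28a and 205 ± 11.9 CPM of Lin28b, so that the ES–HLB levels lay below those of both stages. Trim71, Arid3a, Igf2bp1 and Hmga2, which let-7 is known to repress, belong to the same list and are not a separate result. Their log2 fold changes were −1.73, −1.89, −1.10 and −0.59. Let-7 itself was not measured here, and its part was not tested. Dnmt3l and Dnmt3a, genes of new DNA methylation in the same list, were higher (6.11 against 0 and 372 against 234 CPM). Dnmt3a did not decline between the bud stages, with 370 ± 16.8 CPM in HLBs of E10.5. Hmga1, an architectural chromatin protein, had 24.6, 46.4 and 49.3 CPM in ES–HLB and 192, 207 and 233 CPM in early HLBs and did not pass. Hmga1 passed without ES–HLB replicate 1 (−2.12). It also passed in the fit on all 27 libraries, without the filter and without trend and robust estimation (−2.44 in each), and with limma-voom (−2.45).

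Cell cycle and ribosomal protein genes were lower by small steps in most members. Of 36 cell cycle genes 27 were lower and 1 (Mki67) higher, with a median of −0.73. Ccne1 and Ccnd1, cyclins of the G1 phase, were 3.91-fold and 2.90-fold lower (133 ± 11.2 against 386 ± 17.4 CPM for Ccnd1). Cdk1, the mitotic kinase, had 147 ± 2.53 against 319 ± 7.99 CPM, and Mki67 659 ± 27.2 against 496 ± 49.4 CPM. Inhibitors of the cycle were higher in 7 of 15 and lower in 1, the imprinted Cdkn1c (90.1 against 164 CPM). Of 75 ribosomal protein genes 69 were lower and none higher (median −0.69), with a sum of 47734 to 49405 against 74917 to 80758 CPM. Ribosomal protein genes have many near-identical pseudogenes, so the counting could have split their reads. Rpl26 was one of 6 without a call although its level ran from 0, 0 and 4.43 CPM in ES–HLB to 44.1, 15.9 and 60.04 CPM in early HLBs. With CPM as deposited the medians were −0.54 for the cell cycle and −0.49 for ribosomal proteins, still below the median gene. Glycolytic genes were lower in 10 of 19 and higher in 4. Ldha, Gapdh and Eno1 were 2.65-fold, 2.26-fold and 2.09-fold lower, and Eno2 and Pfkp 27.3-fold and 5.90-fold higher. Only 6 of them were lower in limma without trend and robust estimation. Rpl26 passed without ES–HLB replicate 3 (−6.15). Mki67 (0.41) lost its call without trend and robust estimation.

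Immediate early genes, which answer stimulation or handling of cells within minutes, were higher in 19 of 23 and lower in 2 (Myc and Atf3), with a median of 1.94. Fos had 76.4, 108 and 113 CPM in ES–HLB and 0.505, 0.806 and 0.451 CPM in early HLBs. Egr1 had 397, 463 and 506 CPM and 4.04, 6.18 and 5.75 CPM, and Jun, the partner of Fos, 178 against 26.0 CPM. Fosb and Egr2 were below the floor in every early HLB library and so at least 71.5-fold and 58.3-fold higher. ES–HLB cells had been dissociated and sorted, no such step is named for the buds, and the part of these steps was not tested. ES–FLB, handled in the same way, had 139 CPM of Fos and 631 CPM of Egr1 against 0.824 and 11.9 CPM in early FLBs.

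Targets of p53, the factor that halts damaged or stressed cells, were higher in 13 of 21 and lower in 2 (Aen and Perp). Cdkn1a, the cyclin kinase inhibitor p21, had 71.1, 69.6 and 59.8 CPM in ES–HLB and 8.95, 8.22 and 6.65 CPM in early HLBs. Ccng1 had 260.3, 240.1 and 228 CPM and 36.0, 41.6 and 40.1 CPM, and Eda2r, Ddit4l, Trp53inp1 and Zmat3 were 18.1-fold, 19.3-fold, 11.8-fold and 4.82-fold higher. Mdm2 was 1.31-fold higher, while Bax and Sesn1 were not called. Promoters of this group are shown because most of its members were called higher. The 250 bases before each RefSeq start (GRCm38.p6) were searched on both strands for a part of the p53 site, not for the whole site. Of 17 listed genes with a promoter sequence, 9 (52.9%) held a match in at least 1 promoter. Of all 32851 promoters, taken singly, 7.13% held one. The genes were Aen, Bax, Ccng1, Cdkn1a, Ddit4l, Ei24, Mdm2, Polk and Sesn1, of which Ccng1, Cdkn1a, Ddit4l, Mdm2 and Polk were called higher, Aen lower and the rest not. These shares count unlike units, genes and single promoters. The list is of known p53 targets, so a high share among them is not a result of these data. The match is a description and not a measured site. Below are 3 of these promoters with the matches in capitals, and Egr2 with its match to the CArG box, the site of serum response factor. The Cdkn1a window lies before the more upstream of its starts and the Egr2 window before 1 of several. A CArG box was in 1.47% of all promoters, and among the immediate early genes in those of Egr2 and Zfp36. Aen was no longer called without ES–HLB replicate 2 or 3 or early HLB replicate 3 (log2 fold change −0.31 to −0.28). Mdm2 was no longer called without ES–HLB replicate 1 or 2 (log2 fold change 0.35). Aen (−0.11) lost its call with CPM as deposited, and Aen (−0.30) and Mdm2 (0.38) lost their calls without trend and robust estimation.
Cdkn1a, chr17:29090729-29090978, plus strand: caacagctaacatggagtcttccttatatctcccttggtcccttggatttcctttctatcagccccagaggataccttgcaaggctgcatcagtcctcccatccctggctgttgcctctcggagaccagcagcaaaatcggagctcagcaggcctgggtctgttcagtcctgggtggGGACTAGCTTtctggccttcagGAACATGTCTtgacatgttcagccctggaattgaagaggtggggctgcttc
Ccng1, chr11:40755287-40755536, minus strand: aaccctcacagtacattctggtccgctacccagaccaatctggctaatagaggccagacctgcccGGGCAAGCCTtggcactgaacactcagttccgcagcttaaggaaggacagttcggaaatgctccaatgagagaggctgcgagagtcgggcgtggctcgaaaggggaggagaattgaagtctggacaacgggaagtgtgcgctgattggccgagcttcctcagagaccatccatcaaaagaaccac
Ddit4l, chr3:137623422-137623671, plus strand: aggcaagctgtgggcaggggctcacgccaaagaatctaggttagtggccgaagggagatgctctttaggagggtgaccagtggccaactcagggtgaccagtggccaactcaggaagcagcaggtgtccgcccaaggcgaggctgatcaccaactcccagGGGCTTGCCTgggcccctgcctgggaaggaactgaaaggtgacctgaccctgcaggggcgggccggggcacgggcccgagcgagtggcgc
Egr2, chr10:67537619-67537868, plus strand: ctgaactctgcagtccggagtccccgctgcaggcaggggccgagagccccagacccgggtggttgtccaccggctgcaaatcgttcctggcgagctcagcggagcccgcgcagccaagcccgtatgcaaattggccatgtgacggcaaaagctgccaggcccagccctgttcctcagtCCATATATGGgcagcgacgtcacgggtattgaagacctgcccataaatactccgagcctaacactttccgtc

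Other responses to culture were less uniform. Glucocorticoid targets, listed because the medium held hydrocortisone, were higher in 8 of 20 and lower in 4, and with CPM as deposited in 12 and 4. Fkbp5 and Zbtb16, commonly used readouts of the receptor, were lower (69.9 ± 3.38 against 143 ± 8.59 and 20.95 ± 0.703 against 49.4 ± 6.29 CPM). Tsc22d3, another, was not called (39.5 against 49.8 CPM), and Ddit4, Hif3a and Klf9 were 6.93-fold, 6.20-fold and 6.29-fold higher. Targets of the amino acid stress factor ATF4 were divided, 10 higher and 13 lower of 28. Chac1, Trib3, Sesn2 and Ddit3 were 10.47-fold, 4.40-fold, 3.28-fold and 2.61-fold higher, while Atf4 itself and the synthesis enzymes Psat1, Phgdh and Asns were 2.09-fold, 2.06-fold, 1.90-fold and 1.55-fold lower. Of 23 hypoxia targets 9 were higher, among them Vegfa at 139.5 ± 4.84 against 46.9 ± 3.46 CPM, and 1 lower. Of 22 genes of cholesterol synthesis 7 were higher and 2 lower, all by under 2-fold (median 0.10), and 1 was higher in limma without trend and robust estimation. Tsc22d3 passed without early HLB replicate 2 (−0.38).

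Signalling genes of the limb went both ways. Several FGF response genes were lower, as was Fgf8. Etv4 and Etv5, targets of FGF in mesenchyme, had 19.4 and 74.3 CPM against 86.7 and 160.1 CPM, Dusp6 had 166 against 311 CPM, and Fgf10, the mesenchymal ligand, 16.3, 17.8 and 18.9 CPM in ES–HLB and 47.7, 52.3 and 51.6 CPM in early HLBs. Spry2 was the one feedback gene of FGF that was higher (61.2 against 26.3 CPM). Of 27 Wnt genes 12 were higher and 11 lower. Ectodermal ligands Wnt3, Wnt6, Wnt7a and Wnt7b were lower (log2 fold changes −2.86, −3.87, −5.57 and −1.97), as were Tcf7 and Lef1 (−2.97 and −0.90). The feedback genes Axin2, Nkd1, Notum and Dkk1 were higher (0.61, 1.07, 1.23 and 1.07), with Dkk2 at 70.0 against 4.95 CPM. BMP genes were higher in 9 and lower in 6 of 20, and with CPM as deposited in 12 and 5. Id1 and Id2, direct targets of BMP signals, were 1.51-fold and 2.27-fold higher, Bmp4 was not called (92.8 against 82.3 CPM), and Msx1 and Msx2 were lower as given above. Bmp4 passed with CPM as deposited (0.37). Id1 (0.60) lost its call without trend and robust estimation, and Axin2 (0.61) and Wnt7b (−1.97) lost their calls in the fit on all 27 libraries.

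TGF-beta genes were higher in 12 of 17 and lower in 2 (Tgfbr1 and Skil). Tgfb2, a ligand, had 117, 113 and 125 CPM in ES–HLB and 18.7, 25.5 and 28.9 CPM in early HLBs, the receptor Tgfbr2 70.1 against 26.3 CPM and the target Tgfbi 125 against 20.7 CPM. Inhba, an activin subunit, was below the floor in early HLBs and at least 38.1-fold higher, and its antagonist Fst had 18.4 against 0.536 CPM. In RA signalling, 5 genes were higher and 5 lower of 13. Rarb, a direct target of RA, was 10.1-fold lower, the binding proteins Crabp1 and Crabp2 were 2.05-fold and 4.54-fold lower, and the synthesis enzyme Aldh1a3, below the floor in early HLBs, was at least 52.2-fold higher. Of the Notch genes, Dll4, Notch4 and Jag2 were lower (−2.51, −2.17 and −2.54) and Notch1 was higher (0.96). Dll4 and Notch4 are genes of endothelium, whose markers were lower in the same libraries. Of 14 Notch genes 3 were higher and 7 lower, but with CPM as deposited 5 were higher and 4 lower, and without trend and robust estimation 1 and 6. Of 19 Eph receptors and ephrins 10 were higher, Epha7 by 3.93-fold among them, and 4 lower. Targets of YAP were higher in 4 of 13 and lower in 2, with Cyr61 at 113 against 12.6 CPM and Ctgf, its relative, not called (4.39 against 5.30 CPM). Contractile genes were higher in 7 of 16 and lower in 4, and Acta2, smooth muscle actin, was 6.18-fold higher. Acta2 was no longer called without ES–HLB replicate 1, 2 or 3 or early HLB replicate 1 or 3 (log2 fold change 2.43 to 2.68). Tgfbr1 (−0.13) lost its call with CPM as deposited, and Tgfbr1 (−0.32) lost its call without trend and robust estimation, and Crabp1 (−1.03) and Tgfbr1 (−0.32) lost their calls in the fit on all 27 libraries.

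Genes of chromosome 8, singled out after their values were seen, were shifted upward as a body. Over genes with at least 16 CPM on average, the median log2 fold change was 0.39 for the 503 genes of chromosome 8 and between −0.21 and −0.06 for the 18 other autosomes. Against the median autosome the difference was 0.55, or 1.47-fold. It was 0.55, 0.53 and 0.50 in the single ES–HLB libraries, and between −0.02 and 0.00228 when 1 early HLB library was set against the other two. In 7 windows of 20 Mb along the chromosome the median stayed between 0.28 and 0.50. Of its genes 53.9% were called higher and 12.5% lower, where the other autosomes had 18.6% to 27.8% higher. The shift was 0.55 in ES–FLB against early FLB and 0.54 for ES–HLB against E10.5 HLB, and −0.01 between the HLB stages, where E10.5 HLB rests on 2 libraries for this chromosome. It thus went with the ES-derived cells, in both limb types and against both stages. An extra chromosome 8 is known as a recurrent change in cultured mouse ES cells, but DNA copy number was not measured in these data. Hand2, Irx5, Hhip, Fgfr1, Nfix, Nkd1, Junb, Ier2, Zfp42, Col4a1, Col4a2, Cdh1 and Cdh5 lie on chromosome 8. The last 2 were called lower although the chromosome was shifted upward. Rpl13, among the 6 ribosomal protein genes without a call, lies there too. The part of the shift in the differences of these genes was not tested. Rpl13 passed without early HLB replicate 1 (−0.16).

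**Figure D5:**
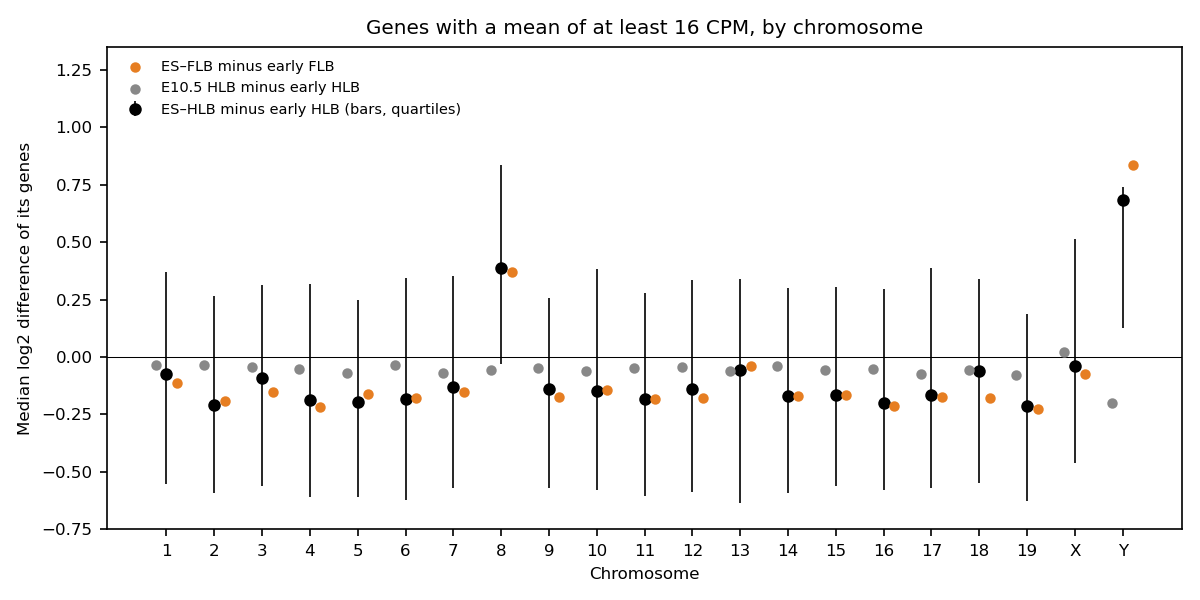
Median log2 difference (y axis) over the genes of each chromosome (x axis) with at least 16 CPM on average, for ES–HLB minus early HLB (black, with bars from the lower to the upper quartile), ES–FLB minus early FLB (orange) and E10.5 HLB minus early HLB (grey). Chromosome 8 lies at 0.39 and 0.37 in the ES-derived comparisons and with the other autosomes in the comparison of stages. The Y chromosome rests on 4 genes.

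The sex-linked genes also differed. Xist, expressed from the inactive X of female cells, had 0.258, 1.01 and 0.607 CPM in ES–HLB and 287, 110.1 and 119 CPM in early HLBs (log2 fold change −7.17, adjusted p = 0.000127, limma). The Y-linked genes Ddx3y, Eif2s3y and Uty were present in both groups and 1.60-fold, 1.64-fold and 1.81-fold higher in ES–HLB, while Kdm5d was lower (12.4 ± 1.81 against 35.6 ± 0.301 CPM). The early HLB libraries thus held RNA of both sexes, and Xist was near the floor in ES–HLB. Hprt, the purine salvage gene on the X chromosome, had 1.68, 0.719 and 1.70 CPM in ES–HLB and 81.5, 99.0 and 90.6 CPM in early HLBs, and 1.54 ± 0.46 CPM in ES–FLB. EB5 derives from the ES line E14tg2a, which is known to lack a working Hprt. The cause of the low level was not tested. Xist was no longer called without ES–HLB replicate 1 or 3 (log2 fold change −7.19 to −6.92). Ddx3y (0.67), Eif2s3y (0.70), Kdm5d (−1.49) and Uty (0.84) lost their calls in the fit on all 27 libraries, and Xist (−8.00) lost its call with limma-voom.

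By size, the 15 largest called changes upward among genes without overlap between libraries whose higher group reached 16 CPM ran from Apob (7.50) to Nfix (5.29), a range that also holds Lum (6.78), which was not called. Beside collagens, Fos, Egr1, Apob and Ttr they held Thy1, a surface protein of stromal cells, at 73.2, 71.4 and 70.0 CPM in ES–HLB and 0.404, 0.484 and 0.338 CPM in early HLBs. They also held the angiotensin receptor Agtr2 (75.2 against 0.59 CPM), the protocadherin Pcdh10 (232 against 3.10 CPM), the matrix proteoglycan Spock1 (33.4 against 0.12 CPM), the hormone gene Trh (29.7 against 0.0544 CPM), the protease inhibitor Spink3 (22.0 against 0 CPM) and the glutamate receptor Gria2 (31.8 against 0.231 CPM). Nfix, a factor that rises with developmental age in several tissues, had 26.2, 29.8 and 31.8 CPM and 0.404, 0.215 and 0.169 CPM, and HLBs of E10.5 had 0.0915 ± 0.129 (n = 2) CPM. For Agtr2 and Pcdh10 the E10.5 HLBs lay between the compared groups, at 10.95 ± 1.60 (n = 2) and 26.2 ± 4.74 CPM. For Thy1 they had 0.270 ± 0.123 (n = 2) CPM, below both groups. The 15 largest called changes downward ran from Grb10 (−8.25) to C230091D08Rik (−5.24). Beside Xist, Hprt, Hbb-y, Wnt7a and Lmx1b they held Aplnr, the apelin receptor of vessels (1.54 against 79.0 CPM), Hemgn of red cells (0.0404 against 21.3 CPM) and Bhlha9, a limb bud gene (0 against 18.9 CPM). The others, Gm1821, AI506816, Gm9781, C130021I20Rik, 9530082P21Rik and C230091D08Rik, are predicted or noncoding genes. C130021I20Rik, which adjoins Lmx1b on chromosome 2, had 3.66 ± 1.20 against 216 ± 48.1 CPM, and 172 ± 2.73 CPM in E10.5 HLBs. C230091D08Rik had 0.0884 ± 0.0773 against 21.6 ± 1.66 CPM, and 0.0915 ± 0.129 (n = 2) CPM in E10.5 HLBs. The level of 9530082P21Rik was 41.4 ± 2.05 CPM in early HLBs but 0.845 ± 0.281 CPM in E10.5 HLBs, near its level in ES–HLB (0.526 ± 0.0455 CPM). Gm9781 was no longer called without ES–HLB replicate 1, 2 or 3 or early HLB replicate 3 (log2 fold change −5.93). Pcdh10 was no longer called without ES–HLB replicate 1 or early HLB replicate 2 or 3 (log2 fold change 5.92 to 6.18). Gm9781 (−5.93) lost its call in the fit on all 27 libraries, and C130021I20Rik (−5.88), Gm1821 (−7.53), Gm9781 (−8.76) and Hemgn (−7.74) lost their calls with limma-voom, and Gm9781 (−4.02) lost its call with a pseudocount of 2.

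Some genes were seen in 1 group alone. In 31 genes every ES–HLB library had at least 5 CPM while every early HLB library was below 3 reads, Otx2, Dio2, Scg2 and S100a4 among them (chosen after their values were seen), and at least 83.5-fold, 81.2-fold, 60.3-fold and 83.9-fold higher. Otx2, a head and epiblast factor, had 13.2, 14.2 and 14.9 CPM in ES–HLB. The reverse held for 16 genes. Of these, 9 (such as Omd and Msx1as) were at 5 CPM or more in all early limb bud libraries, fore and hind, and had a mean below 1 CPM in each of the 7 other groups, E10.5 limb buds included. The early limb buds were also the most deeply sequenced libraries of the series, and the part of library preparation in these genes was not tested. Msx1as (−7.16) lost its call with limma-voom.

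The design allows 1 more question, whether a difference of ES–HLB from its bud was particular to the hindlimb. ES–FLB against early FLB was set beside it, and the difference between both differences was tested in 12 libraries. By the legend of the study the early FLBs were younger than the early HLBs. ES–FLB also received RA in culture, where ES–HLB received its antagonist. Stage and culture cannot be told apart from limb type here. The difference between the pairs passed for 912 of 13648 genes (6.68%). For the other genes no difference between the pairs was detected, which does not show that the pairs are alike. Hoxc10 had the smallest p. Its change was −2.04 in the hindlimb pair and 3.28 in the forelimb pair (difference −5.32, adjusted p = 3.15e-15, limma). Early FLBs had 0.122 CPM of it and ES–FLB 5.54 CPM. In the next values the hindlimb pair comes first and the forelimb pair second, whose own change was not tested. Fmod, a tendon proteoglycan, had log2 fold changes of 2.19 and −2.36. Rspo1, a Wnt agonist, had the opposite pattern, −0.75 and 2.996. The basement membrane protein Nid2 (0.48 and −1.04) and the guidance cue Sema3a (0.53 and −1.89) were called higher in the hindlimb pair and had negative values in the forelimb pair. The chromatin remodeller Chd3 (2.23 and 3.87), the transcription factor Foxp2 (0.66 and 2.65) and the guidance receptor Epha4 (0.84 and 2.46) had positive values in both pairs and larger ones in the forelimb. The heterochronic genes Trim71 (−1.73 and −3.84) and Arid3b (−1.44 and −2.91) had negative values in both, of smaller size in the hindlimb. Of 14 heterochronic genes 10 differed between the pairs, Lin28a by 2.40, and of 35 collagen chains 10 did. Col6a1 had log2 fold changes of 6.26 and 4.37 (difference 1.89, adjusted p = 2.02e-09, limma). For Grb10 the differences were −8.25 and −7.35, and the difference between them did not pass (adjusted p = 0.0216, limma). Among red cell genes 1 and among endothelial genes 3 differed between the pairs, and among ribosomal protein genes 0. Sema3a was no longer called without ES–HLB replicate 1, 2 or 3 (log2 fold change 0.51 to 0.55). Nid2 (0.48) and Sema3a (0.53) lost their calls without trend and robust estimation, and Rspo1 (−0.75) lost its call in the fit on all 27 libraries.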

How the data were processed

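RNA-seq libraries (TruSeq Stranded mRNA, single-end, 600 ng of total RNA each) of 27 samples in 9 groups were mapped by the authors with HISAT to mm10, and fragments per gene were estimated with Cuffdiff. The submitters' processing notes name FastQC 0.11.5, HISAT2 2.0.4, Cufflinks 2.1.1 and edgeR 3.16.2. The deposited values are CPM for 23279 genes, each library summing to 1000000, so changes in abundant genes shift all others, and no filter is stated. Groups were taken from the labels. From the CPM, reads per library were estimated by the spacing of low values, and libraries were scaled by a trimmed mean of log ratios over all 27 (30% and 5% trimmed). Genes with at least 1 CPM in 3 of the 6 libraries were tested (2 when 1 was left out) on log2(scaled CPM + 0.5) with limma 3.58.1 (trend, robust, two-sided) in R 4.3.3, Benjamini-Hochberg adjusted over all genes tested, threshold 0.001. The interaction was fitted over 12 libraries. For E10.5 HLB replicate 2, values of a region without reads (chromosomes 5 to 9, X, Y and the end of 4) were set to missing. Named genes were Col6a1, Grb10, genes the study names on this comparison, members of 52 lists (18 of 930 symbols not found), the 15 largest called changes in each direction without overlap whose higher group reached 16 CPM, and the 10 of smallest interaction p. Members and lists were chosen with earlier results of these data known. The pairing check correlated deviations of same-numbered libraries. Alternatives were other scaling, pseudocounts (0.1 and 2), filters, model settings, all libraries, a replicate block, limma-voom and leaving out each library. The scripts were tested on simulated data. Promoters came from RefSeq (GRCm38.p6). Python 3.11.15, pandas 2.3.3 and matplotlib 3.10.9 were used. Values of a few members of the lists are not reported here.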

Additional observations from a re-analysis of the deposited data

Results flagged for a closer look

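The difference of ES–HLB from its bud differed from that of ES–FLB for 83 of the genes named above (interaction term in limma, adjusted p below 0.001), and each value is on the log2 scale, hindlimb pair minus forelimb pair, so that a positive value is a change that was higher in the hindlimb pair. Of the named genes 282 were tested between ES–HLB and early HLB. Over all genes 912 of 13648 (6.68%) passed the interaction. Some named genes were picked for a small interaction p or a large change, so the count of 83 is not a result about the named genes as a set. The pairs also differ in the culture of the cells, with retinoic acid for ES–FLB and its antagonist for ES–HLB, and the figure legend of the study gives an earlier stage for early FLBs than for early HLBs. The part of these or of any other cause was not tested. Among genes of growth, metabolism and stress the difference was positive for Aen (0.44), Eno1 (1.13), Gapdh (0.63), Klf9 (1.23), Pfkp (2.33) and Psat1 (0.39) and negative for Ccnd1 (−0.73), Cdkn1c (−0.86) and Trp53inp1 (−0.73). Among genes of other embryonic lineages the difference was positive for Apoa1 (1.79), Gata4 (3.26), Sox2 (1.63) and Ttr (1.43). Among heterochronic genes the difference was positive for Arid3a (0.86), Arid3b (1.47), Dnmt3l (2.19), Igf2bp1 (0.70), Lin28a (2.40), Lin28b (1.19) and Trim71 (2.12) and negative for Dnmt3a (−0.75). Among FGF, BMP and Wnt genes the difference was positive for Dkk2 (1.43), Lef1 (0.86), Nkd1 (0.75), Notum (0.82), Spry2 (1.28) and Tcf7 (0.85) and negative for Bmp4 (−1.03) and Rspo1 (−3.75). Among genes outside these lists the difference was positive for Gria2 (1.15), Otx2 (3.31), S100a4 (1.38), Sema3a (2.42), Spink3 (2.34), Spock1 (3.33) and Trh (2.38) and negative for Chd3 (−1.64), Foxp2 (−1.99) and Nfix (−1.14). Among collagens and matrix genes the difference was positive for Col12a1 (2.46), Col18a1 (1.04), Col2a1 (1.10), Col6a1 (1.89), Col6a2 (1.64), Fmod (4.56), Has2 (1.09), Loxl1 (1.29) and Nid2 (1.53) and negative for Col15a1 (−0.92). Among pluripotency genes the difference was positive for Dppa5a (1.48), Nanog (1.80) and Zfp42 (1.85). Among proximal and distal genes the difference was positive for Etv5 (0.96) and Zbtb16 (0.88) and negative for Emx2 (−1.85), Jag1 (−1.32) and Meis1 (−0.61). Among Eph receptors and ephrins the difference was negative for Epha4 (−1.62). Among IGF and TGF-beta genes the difference was positive for Fst (1.85) and Igfbp3 (0.43) and negative for Igf1 (−1.01) and Tgfbr2 (−0.69). Among the Shh response the difference was negative for Gli1 (−3.59), Grem1 (−3.34), Hhip (−1.32) and Ptch1 (−1.68). Among Hox genes the difference was positive for Hoxc5 (0.75) and Hoxd9 (1.53) and negative for Hoxc10 (−5.32), Hoxc9 (−1.59) and Hoxd11 (−1.72). Among selectors of limb type the difference was positive for Tbx5 (2.05) and negative for Isl1 (−2.63). Among ectodermal genes the difference was positive for Krt18 (1.47), Krt19 (3.48) and Perp (0.88). Among imprinted genes the difference was positive for Mest (0.42), Peg10 (0.74), Peg3 (0.53) and Zim1 (1.20). Among limb mesenchyme factors the difference was positive for Msx1 (0.90) and Sall4 (1.74) and negative for Tbx2 (−0.49).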

How the results depend on the processing

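The number of genes called between ES–HLB and early HLB, 7932, stayed within 1.5 times under every setting tried, from 6865 to 8173 when 1 library was left out and 6137 in limma without trend and robust estimation. The number of genes whose difference differed between the limb pairs, 912, fell to 601 with limma-voom on estimated reads (chosen after seeing the data) and to 445 without trend and robust estimation, and lay between 647 and 908 when 1 library was left out. The replicate numbers did not pair the samples (r of same-numbered deviations between −0.0354 and 0.0463, and 1 of the 3 early HLB libraries correlated best with its own number). With the replicate block 7856 genes were called between the groups and 828 between the limb pairs, and of the named genes Acta2, Col1a1, Dcn, Dlk1, Gm1821, Pcdh10, Tbx20, Tnc and Xist lost their call. Under the block Hoxa10, Hoxb2, Meis2, Tsc22d3 and Twist1 gained one. The count tests planned for reads recovered from the CPM steps were not run, because not enough of the values were whole reads (95.7% to 96.3% of low values in early HLBs and 99.2% to 99.3% in ES–HLB, within 0.1 read). Of 4500 values of 282 named genes under other settings 4292 kept direction and side of the threshold, 128 lost the call, 62 gained one and 18 changed sign. Of 1768 list counts 1628 stayed within 1.5 times and 140 did not. The changes of sign, all in genes without a call, were those of Bax (−0.0050 to 0.0875 when 1 library was left out), Col4a1 (−0.0291 to 0.0562 when 1 library was left out), Col4a2 (−0.0158 to 0.0278 when 1 library was left out), Dlx6 (−0.3701 to 0.0467 when 1 library was left out), Hoxa13 (0.1074 with CPM as deposited and −0.1288 to 0.0159 when 1 library was left out), Hoxb5 (−0.0853 to 0.1421 when 1 library was left out), Krt8 (−0.3622 to 0.0196 when 1 library was left out), Rpl13 (0.0616 with CPM as deposited) and Sesn1 (0.1901 with CPM as deposited, 0.0061 with limma-voom and −0.0423 to 0.0815 when 1 library was left out). Without ES–HLB replicate 1 the call was lost for Acta2 (2.62), Col1a1 (3.13), Dcn (5.25), Gm9781 (−5.93), Igf2r (1.15), Mdm2 (0.35), Meis1 (0.52), Pcdh10 (6.18), Ptch1 (0.58), Sema3a (0.53), Tbx20 (1.98), Tcf21 (2.64), Tnc (3.89), Tnnt2 (1.06) and Xist (−6.92). It was gained for Hmga1 (−2.12). Without ES–HLB replicate 2 the call was lost for Acta2 (2.68), Aen (−0.28), Col1a1 (3.20), Dcn (5.34), Gm9781 (−5.93), Hbb-y (−6.23), Hoxb4 (0.74), Jag1 (0.72), Krt15 (1.55), Mdm2 (0.35), Meis1 (0.54), Sema3a (0.55), Tbx20 (2.16), Tcf21 (2.70) and Tnc (3.87). It was gained for Kcnq1ot1 (2.82). Without ES–HLB replicate 3 the call was lost for Acta2 (2.64), Aen (−0.31), Col1a1 (3.04), Dcn (5.25), Gm9781 (−5.93), Hbb-y (−6.11), Jag1 (0.80), Meis1 (0.51), Ptch1 (0.53), Sema3a (0.51), Tbx20 (1.92), Tcf21 (2.65), Tnc (3.84) and Xist (−7.19). It was gained for Rpl26 (−6.15). Without early HLB replicate 1 the call was lost for Acta2 (2.43), Col1a1 (2.84), Dcn (5.03) and Hbb-y (−6.15). It was gained for Gli1 (1.85), Hoxa10 (−0.40), Hoxa9 (−0.60), Hoxb2 (0.45), Krt5 (0.38), Meis2 (0.37), Rpl13 (−0.16), Scx (2.70), Serpinh1 (−0.37), Sox9 (1.29) and Twist1 (0.35). Without early HLB replicate 2 the call was lost for Hbb-y (−6.09), Pcdh10 (5.92) and Tnc (4.17). It was gained for Hoxa10 (−0.65), Hoxa9 (−0.89), Hoxb2 (0.76), Isl1 (0.69), Lum (7.63), Meis2 (0.59), Sox9 (0.84) and Tsc22d3 (−0.38). Without early HLB replicate 3 the call was lost for Acta2 (2.52), Aen (−0.29), Col1a1 (3.13), Dcn (4.99), Gm9781 (−5.93), Igf2r (1.20), Pcdh10 (5.97), Tbx20 (1.98), Tcf21 (2.88), Tnc (3.95) and Tnnt2 (1.13). It was gained for Hoxb2 (0.74) and Twist1 (0.54). The values in parentheses are log2 fold changes without that library. With CPM as deposited the call was gained for Bmp4, Col4a1, Col4a2, Ei24, Hoxb2, Isl1, Krt5, Meis2 and Twist1. The fit on all 27 libraries gained it for Gli1, Hmga1, Hoxa9, Kcnq1ot1, Lum, Meis2, Postn, Rpl13, Scx, Serpinh1, Sox9 and Tsc22d3. No filter gained it for Hmga1, Kcnq1ot1, Meis2, Scx and Twist1, and no trend for Hmga1, Kcnq1ot1 and Lum. Limma-voom gained it for Hmga1 and Lum, and a pseudocount of 2 for Hoxb2 and Lum. The causes were not tested. Depth limits genes near the floor, which lies higher in ES–HLB than in early HLBs. In simulated data, 25 of 67 genes changed 1.5-fold and 62 of 67 changed 2-fold were called. The simulation gave every gene the same spread between replicates and changed far fewer genes than the 7932 called here. Its counts are thus not detection rates of this comparison.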
